A study of Mus musculus with 5 samples.

Results

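Ion channels and neurotransmitter receptors were examined in mouse retina labelled as Rb knockout, set against wild-type retina on 5 dual-colour spotted arrays. Members were all spots whose single symbol in the platform annotation named a potassium, calcium, sodium, chloride, cyclic nucleotide or Trp channel, or a receptor for glutamate, GABA, glycine, acetylcholine, serotonin or dopamine. This gave 89 spots of 17328, for 64 genes. Of these, 52 spots for 38 genes were measured on at least 4 of the 5 arrays (58.4%, against 58.6% of all spots other than controls) and could be tested. Every array carried total RNA of wild-type mice in channel 1 and of mutant mice, labelled Rb-, in channel 2. The series title names retinal explants. Neither the allele nor any driver of its deletion, and neither strain, age nor pooling of animals, is stated in the sources used here.

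Ion channels set the electrical responses of retinal neurons, and receptors turn released transmitter into current or into G protein signals. Photoreceptors close a cyclic nucleotide-gated channel in light and release glutamate through a calcium channel at a ribbon synapse, bipolar cells read that glutamate with metabotropic or ionotropic receptors, and amacrine cells return GABA and glycine. Muller glia take up extracellular potassium through inward rectifier channels.

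Values are deposited log2 ratios of the channels of an array, after each array was centred on its median. The scanner header gives the order of the wavelengths in a ratio, but no label ties a dye to an RNA. Signs are therefore those of the deposited values and name no genotype. Whether the arrays stem from separate animals or cultures is unstated too, and p-values then cover only the spread among these 5 arrays, which may be technical. A ratio of bulk RNA also cannot tell fewer cells of a type from less RNA per cell. Between 12444 and 13145 spots an array gave a usable ratio. The arrays stood apart by retinal cell markers. The median of 20 rod probes minus that of all tested probes was -3.67, 0.11, -3.58, -0.40 and 0.019 on arrays 1 to 5, and that of 10 probes of dividing progenitors was 2.62, -0.08, 1.87, 0.75 and 0.45. Arrays 1 and 3 thus carried the far negative rod ratios. These are ratios and give no level, so the labelled tissue could not be checked by the abundance of its markers. Of the other marker lists, cone (7 probes), bipolar (7) and ganglion cell probes (8) also lay lowest on those arrays. On arrays 1 and 3 the cone medians minus that of all tested probes were -1.10 and -1.34. In the same measure the bipolar ones were -0.78 and -1.21 and the ganglion cell ones -0.62 and -1.07. Lists of microglia, pigment epithelium and lens had 1 tested probe each and vessels 3. Arrays 1 and 3 also had the widest spread of all tested probes. Their scaled median absolute deviation was 1.14 on both, against 0.63, 0.74 and 0.79 on arrays 2, 4 and 5. The median of all tested probes was lowest there too, at -0.20 and -0.22. Where a probe was lowest on these arrays, the parts of this spread and of any marker list were not tested.

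As a group, the channel and receptor probes differed from all probes by less than the spread between arrays. Their median minus the median of all 10036 tested probes was -0.36, 0.045, 0.11, -0.083 and 0.26 on arrays 1 to 5. It averaged -0.0046 ± 0.23 (SD, n = 5). Array 1 was lowest and array 5 highest. The parts of the marker lists that stood apart on arrays 1 and 3 were not tested. Without arrays 1 and 3 the difference was 0.11. On the 3 arrays scanned at focus position 10, a setting in the scanner header, it was -0.25, and on the 2 at position 0 it was 0.074. Against the 5822 tested probes with a single symbol, the mean difference was 0.054 ± 0.23 (SD, n = 5).

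**Figure D1:**
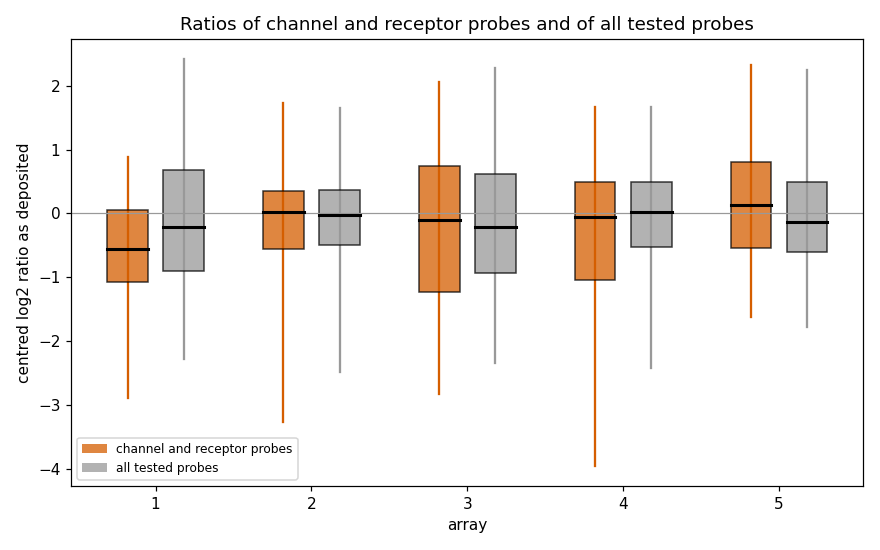
Centred log2 ratios on each array for the channel and receptor probes (orange, 43 to 48 probes an array) and for all 10036 tested probes (grey). Boxes run from the 25th to the 75th percentile with the median as a line, and whiskers from the 5th to the 95th. The median of the orange boxes lies below the grey one on arrays 1 and 4 and above it on arrays 2, 3 and 5, by no more than 0.36.

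No member passed the test. With limma over all tested probes and Benjamini-Hochberg adjustment, 0 of the 52 member probes had an adjusted p under 0.05, where 0% of all tested probes did. The smallest adjusted p was 0.409, and the unmoderated test also called 0. At an unadjusted p under 0.05 there were 6 member probes (11.5%), against 11.4% of all tested probes and 9.53% of those with a single symbol. Of the 6, 3 were positive (5.77%, against 5.52% of all) and 3 negative (5.77%, against 5.9%). The members' share is thus close to the background, and the 6 are described here for their values. Without array 1 the count was 3 of 64 (4.69%, against 8.73% of all), without eBayes moderation 2 of 52, Grin2b and Clcn7 (3.85%, against 10.3% of all), on the 2 arrays at focus position 0 it was 1 of 50 (2%, against 7.01% of all), and with the ratios left uncentred 13 of 52 (25%, against 21.0% of all). Of the 27 member probes on all 5 arrays, 1 (Kcnab2) had the same sign on every array, and it was negative. Of all such probes 15.3% did, 4.01% positive and 11.2% negative. Leaving out array 2 or array 4 raised this to 6 probes, of 36 and of 31, leaving out array 5 to 5 of 31 and leaving out array 3 to 2 of 31, with 4 signs then having to match. The share of all probes was not counted with an array left out, so these counts have no background. Of the 27, 20 were negative on array 1 and 18 on array 3, while 16 were positive on array 2 and 17 on array 4. Of the 25 member probes on 4 arrays, 4 had the same sign on all of them (16.0%, against 19.3% of all such probes), namely Kcnj10 on the positive side and Gabrd, Grin3b and Kcnc4 on the negative side.

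Mean ratios beyond 1 log2 unit were seen for 13 member probes, 4 above 1 and 9 below -1. The 9 below -1 made up 17.3% of the 52, against 9.28% of all tested probes, and the 4 above 1 made up 7.69%, against 8.99%. Coverage differed, with 25 of the 52 on 4 arrays, against 3283 of all 10036 tested probes. Probes on 4 arrays spread more between arrays, and these shares were not matched for coverage. Positive means numbered 17 of 52 (32.7%), against 39.6% of all tested probes and 34.2% of those with a single symbol. Of single-array values, 84 of 235 (35.7%) lay more than 1 log2 unit from 0, against 32% of all.

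**Figure D2:**
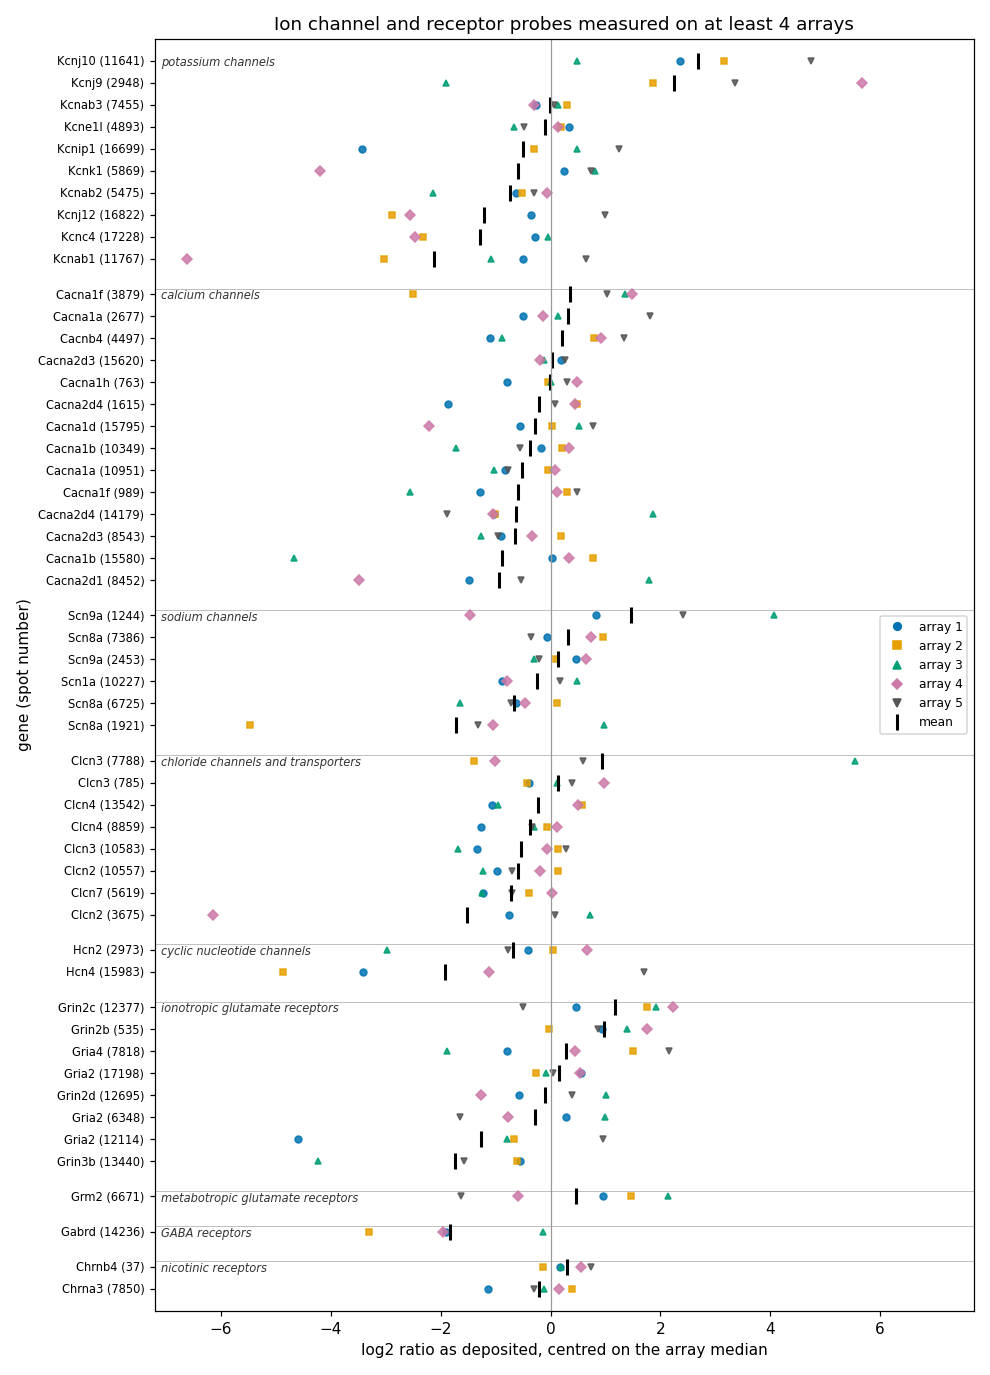
Log2 ratios of the 52 tested member probes, 1 row a probe with its spot number, grouped by role. Coloured symbols are the 5 arrays and black bars the mean over the arrays measured. Kcnj10 and Kcnj9 have the highest means, 2.68 and 2.24, and most rows cross 0.

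Among potassium channels, 26 spots for 22 genes were listed and 10 were tested, 2 with a positive and 8 with a negative mean. Kcnj10 encodes the inward rectifier through which Muller glia clear potassium. It gave log2 values of 2.36, 3.15, 0.48 and 4.74 on arrays 1, 2, 3 and 5. All 4 were positive, array 3 being by far the lowest. The mean was 2.68 ± 1.77 (SD, n = 4), the highest of all tested member probes, with an unadjusted limma p of 0.0105 and an adjusted p of 0.409. Its unadjusted p was under 0.05 in 12 of the 13 other settings in which this probe was fitted, and 0.0564 without eBayes moderation in limma. The adjusted p in these settings ran from 0.232 to 0.627 in limma. The 9 tested probes of Muller glia markers, 5 with a positive and 4 with a negative mean, had a median minus all probes of -0.26, 0.046, 0.43, 0.13 and 0.096 on arrays 1 to 5. Of these 9, 2 had an unadjusted limma p under 0.05, where 11.4% of all tested probes did. Both were negative, Rlbp1 with a mean of -0.77 and Glul spot 9417 with -0.82. The part of the Muller glia markers in the Kcnj10 ratio was not tested.

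Kcnj9, a G protein-gated inward rectifier subunit, had the next highest mean and was picked out after its values were seen. Kcnj9 measured 1.86, -1.91, 5.67 and 3.35 on arrays 2, 3, 4 and 5. Arrays 2, 4 and 5 were high and array 3 was negative, so the mean of 2.24 ± 3.18 (SD, n = 4) was smaller than the spread between arrays (adjusted p = 0.468). The 2 genes are neighbours. Their starts in the RefSeq annotation lie 11888 bases apart on chromosome 1 and point away from each other, with 0 annotated genes lying between, so the 250 bases before each start are shown. They are RefSeq sequences of GRCm38.p6, read along each gene's own strand, for Kcnj9 at chr1:172329323-172329572 (minus strand) and for Kcnj10 at chr1:172340960-172341209 (plus strand). Capitals mark a match to TAATCC, the core bound by photoreceptor homeobox factors such as Crx and Otx2, on either strand.
Kcnj9: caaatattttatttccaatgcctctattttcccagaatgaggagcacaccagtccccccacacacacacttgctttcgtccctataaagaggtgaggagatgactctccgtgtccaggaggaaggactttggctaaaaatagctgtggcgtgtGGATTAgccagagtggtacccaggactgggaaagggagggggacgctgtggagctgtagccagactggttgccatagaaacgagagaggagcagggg
Kcnj10: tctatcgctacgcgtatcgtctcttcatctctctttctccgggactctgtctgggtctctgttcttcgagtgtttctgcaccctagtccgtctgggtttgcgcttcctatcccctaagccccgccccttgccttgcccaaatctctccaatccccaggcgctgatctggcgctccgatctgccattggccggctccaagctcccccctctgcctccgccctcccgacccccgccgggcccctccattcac
The Kcnj9 match begins 97 bases before its start and lies on the reverse strand, and the Kcnj10 window holds none. Over windows that also take in 50 bases after the start, TAATCC was found on either strand in 3 of 64 windows of member genes (4.69%), those of Kcnj9, Cnga1 and Cacna1s, against 7.06% of all 32851 windows. The E2F motifs TTTCGCGC and TTTGGCGC, sought because Rb binds E2F factors, were found in 0 of the 64, against 0.813% of all windows. Of the 64 member genes, 49 had a window. A match is a description of the letters, and no match says only that these letters were not in the window.

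The auxiliary beta subunits of voltage-gated potassium channels differed in size. Kcnab1 gave log2 values of -0.50, -3.03, -1.09, -6.61 and 0.64 on arrays 1 to 5. Array 4 was far below the rest and array 5 positive, and the mean was -2.12 ± 2.85 (SD, n = 5), the lowest of all tested member probes (adjusted p = 0.450). Kcnab2 had -0.64, -0.52, -2.14, -0.063 and -0.31 on arrays 1 to 5. It was the only member probe negative on all 5 arrays, by far the most on array 3, with a mean of -0.73 ± 0.82 (SD, n = 5) and an adjusted p of 0.453. Kcnab3 lay near 0 on every array, from -0.31 to 0.31, and its mean of -0.014 ± 0.26 (SD, n = 5) turned positive when the arrays were scaled to the same spread, quantile normalized or centred on 5-array probes, among other settings.

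Of the remaining potassium channels, Kcnc4, a fast-gating voltage-gated channel, was negative on each array measured, with -0.29, -2.32, -0.054 and -2.47 on arrays 1, 2, 3 and 4. Arrays 2 and 4 held most of this, and its other probe was positive, with 0.79, 0.35 and 0.64 on arrays 1, 4 and 5. The inward rectifier Kcnj12 had -0.37, -2.90, -2.56 and 0.99 on arrays 1, 2, 4 and 5, with the same arrays 2 and 4 low. Kcnk1, a leak channel subunit, had 0.24, 0.81, -4.19 and 0.74 on arrays 1, 3, 4 and 5, so that array 4 alone made its mean of -0.60 ± 2.41 (SD, n = 4) negative. The channel-interacting protein Kcnip1 had -3.43, -0.30, 0.48 and 1.25 on arrays 1, 2, 3 and 5, with array 1 alone far below 0 and a mean of -0.50 ± 2.05 (SD, n = 4). Kcne1l, an auxiliary subunit, stayed between -0.66 and 0.33.

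With 14 tested probes, the most of any role, calcium channels had 21 spots for 14 genes. Of the 14 probes, 4 had a positive and 10 a negative mean. All 14 means lay between -0.93 and 0.34, and 0 had an unadjusted p under 0.05. The median over these probes was -0.83, 0.20, -0.12, 0.094 and 0.26 on arrays 1 to 5, lowest on array 1. Cacna1f, the pore subunit of the calcium channel at photoreceptor ribbons, was tested by 2 probes. Spot 989 gave log2 values of -1.28, 0.29, -2.55, 0.11 and 0.47 on arrays 1 to 5. Arrays 1 and 3 were negative and the others near 0. Rod, cone, bipolar and ganglion cell probes were also lowest on arrays 1 and 3, and progenitor probes highest. The part of none of these was tested. The mean of spot 989, -0.59 ± 1.30 (SD, n = 5), was 0.29 without arrays 1 and 3. Spot 3879 had -2.50, 1.35, 1.49 and 1.04 on arrays 2, 3, 4 and 5. Here array 3 was positive and array 2 was far below the others, so the 2 probes disagreed in sign on both arrays 2 and 3.

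Cacna2d4, the auxiliary subunit that pairs with Cacna1f in photoreceptors, was also tested by 2 probes that differed. Spot 14179 gave log2 values of -1.04, -1.01, 1.87, -1.04 and -1.88 on arrays 1 to 5. It was negative on all arrays but array 3. Spot 1615 had -1.87, 0.49, 0.45 and 0.086 on arrays 1, 2, 4 and 5, with array 1 alone negative. The means were -0.62 ± 1.44 (SD, n = 5) and -0.21 ± 1.12 (SD, n = 4). A further spot had 1 value, 3.85 on array 2.

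The pore subunits of presynaptic calcium channels of other neurons, Cacna1a and Cacna1b, had a mean below 0 on 3 of their 4 probes. Cacna1a had -0.83, -0.049, -1.03, 0.078 and -0.77 on arrays 1 to 5 on spot 10951. Its other probe, spot 2677, had -0.51, 0.13, -0.14 and 1.81 on arrays 1, 3, 4 and 5, positive mainly on array 5. Cacna1b had -0.17, 0.21, -1.72, 0.34 and -0.55 on arrays 1 to 5 on spot 10349. On spot 15580 it had 0.018, 0.78, -4.68 and 0.34 on arrays 1, 2, 3 and 4, where array 3 alone was far negative. Both Cacna1b probes were thus lowest on array 3. Cacna2d3, an auxiliary subunit, had -0.90, 0.20, -1.27, -0.34 and -0.95 on arrays 1 to 5 on spot 8543 (adjusted p = 0.441). Spot 15620 of Cacna2d3 had 0.18, -0.12, -0.19 and 0.26 on arrays 1, 3, 4 and 5, the smallest spread of all tested member probes, with a mean of 0.032 ± 0.22 (SD, n = 4). Cacna2d1, another auxiliary subunit, had -1.49, 1.79, -3.49 and -0.54 on arrays 1, 3, 4 and 5, with arrays 3 and 4 at opposite ends. The pore subunits Cacna1d and Cacna1h had means of -0.29 ± 1.19 (SD, n = 5) and -0.0079 ± 0.49 (SD, n = 5), the latter turning positive under several other settings. The beta subunit Cacnb4 had -1.10, 0.79, -0.88, 0.91 and 1.34 on arrays 1 to 5, negative on arrays 1 and 3 only. The parts of the marker lists that stood apart on these arrays were not tested. A further Cacnb4 spot had -3.27, 3.78 and 3.84 on arrays 1, 2 and 5.

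Sodium channels had 9 spots for 5 genes, of which 6 probes for 3 genes were tested. Scn8a, the alpha subunit found at spike initiation sites of many neurons, had 3 tested probes. Spot 6725 gave log2 values of -0.62, 0.11, -1.64, -0.46 and -0.72 on arrays 1 to 5, spot 7386 had -0.066, 0.95, 0.74 and -0.35 on arrays 1, 2, 4 and 5, and spot 1921 had -5.47, 0.97, -1.06 and -1.33 on arrays 2, 3, 4 and 5. Spot 6725 was negative on every array but array 2, where spot 1921 lay far below the others and spot 7386 was positive. Their means were -0.67, 0.32 and -1.72, with adjusted p from 0.444 to 0.690 in limma. A further Scn8a spot, on 3 arrays, was positive on each, with 1.18, 2.63 and 0.72 on arrays 1, 3 and 5. Scn9a, a related alpha subunit, had means of 0.14 ± 0.41 (SD, n = 5) and 1.46 ± 2.36 (SD, n = 4) on its 2 probes. Spot 1244 gave 0.82, 4.06, -1.48 and 2.42 on arrays 1, 3, 4 and 5, high on arrays 3 and 5 and negative on array 4. Spot 2453 gave 0.46, 0.098, -0.31, 0.64 and -0.21 on arrays 1 to 5, all close to 0. Scn1a had a mean of -0.26 ± 0.69 (SD, n = 4).

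The Clcn family of chloride channels and exchangers had 9 spots for 4 genes and 8 tested probes, 2 with a positive and 6 with a negative mean. Clcn7, the chloride-proton exchanger of lysosomes, gave log2 values of -1.23, -0.40, -1.25, 0.029 and -0.71 on arrays 1 to 5. Arrays 1 and 3 were lowest and array 4 was near 0, for a mean of -0.71 ± 0.55 (SD, n = 5), an unadjusted limma p of 0.0484 and an adjusted p of 0.435. It kept an unadjusted p under 0.05 in 7 of 16 alternatives, the unmoderated one included. Clcn2, a plasma membrane chloride channel, had -0.97, 0.14, -1.23, -0.20 and -0.70 on arrays 1 to 5 on spot 10557, again lowest on arrays 1 and 3. On those arrays several marker lists, rods among them, stood apart and the spread of all tested probes was widest. The part of neither was tested for Clcn7 or Clcn2. Spot 3675 of Clcn2 had -0.76, 0.72, -6.15 and 0.076 on arrays 1, 3, 4 and 5, so its mean of -1.53 rested on array 4. Clcn3, an endosomal exchanger, had means of -0.53, 0.13 and 0.93 on 3 probes. Spot 10583 gave -1.34, 0.14, -1.69, -0.058 and 0.28 on arrays 1 to 5, spot 785 gave -0.40, -0.44, 0.12, 0.97 and 0.39 on arrays 1 to 5, and spot 7788 gave -1.40, 5.55, -1.02 and 0.59 on arrays 2, 3, 4 and 5. On array 3 they thus ran from far negative to far positive. Clcn4, another endosomal exchanger, gave -1.26, -0.060, -0.30, 0.11 and -0.33 on arrays 1 to 5 on spot 8859 and -1.06, 0.58, -0.96 and 0.50 on arrays 1, 2, 3 and 4 on spot 13542, with means of -0.37 ± 0.53 (SD, n = 5) and -0.23 ± 0.90 (SD, n = 4). Both were lowest on array 1, and a further spot had -0.85, -1.04 and 3.25 on arrays 2, 4 and 5.

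**Figure D3:**
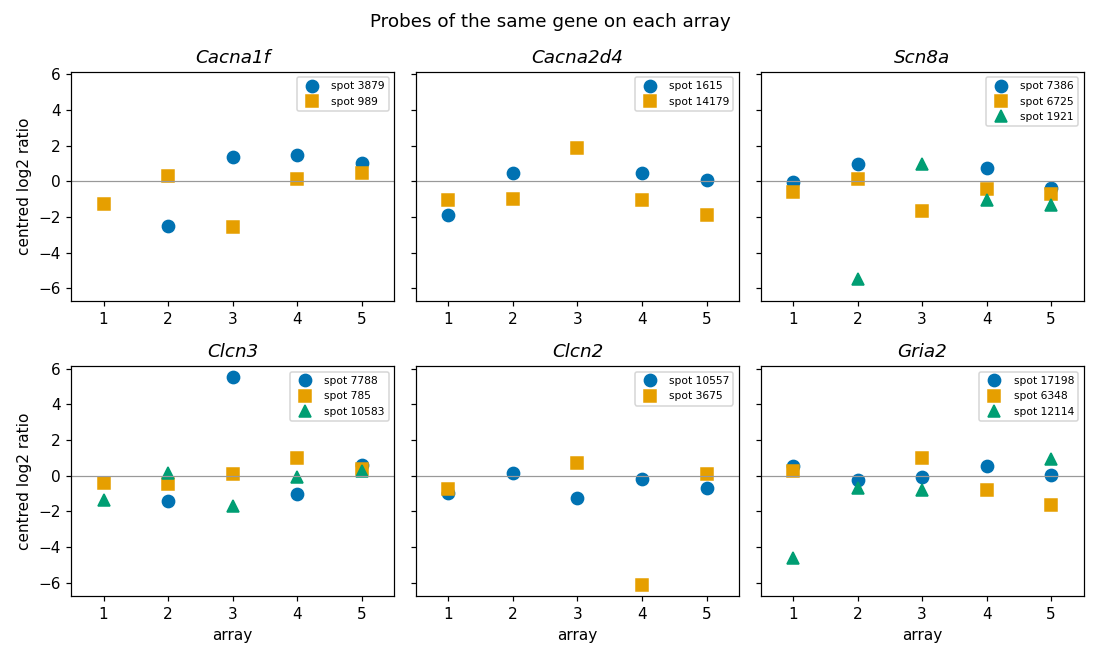
Centred log2 ratios on each array for 6 genes with 2 or 3 tested probes, 1 symbol a probe. The probes of Cacna1f lie on opposite sides of 0 on arrays 2 and 3, and single arrays set the far values of Scn8a (-5.47), Clcn3 (5.55), Clcn2 (-6.15) and Gria2 (-4.60).

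Across roles, 11 member genes had 2 or more tested probes, 25 probes in all. The means of all probes of a gene had the same sign for 5 of the 11, Cacna1b, Cacna2d4, Clcn2, Clcn4 and Scn9a. The share over all genes with several tested probes was not counted, so nothing particular to the members is read from the 5. The distance between the highest and lowest mean of a gene had a median of 0.94 log2 and reached 2.04 for Scn8a. Probes of a gene need not detect the same transcripts, and none of these means passed the test.

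Hcn2 and Hcn4, pacemaker channels opened by hyperpolarization, were the tested cyclic nucleotide channels. Hcn4 gave log2 values of -3.42, -4.87, -1.11 and 1.71 on arrays 1, 2, 4 and 5. Arrays 1 and 2 were far negative and array 5 positive, so the mean of -1.92 ± 2.87 (SD, n = 4) did not exceed the spread (adjusted p = 0.482), and on the 2 arrays at focus position 0 it was 0.30. Hcn2 had -0.41, 0.037, -2.97, 0.67 and -0.78 on arrays 1 to 5, with array 3 alone far below 0. Cnga1, the alpha subunit of the rod light-response channel, was measured on 2 arrays only, with -0.058 and 1.47 on arrays 1 and 2, so it could not be tested.

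Of 10 ionotropic glutamate receptor spots for 7 genes, 8 were tested, 4 with a positive and 4 with a negative mean. An unadjusted p under 0.05 was seen for 3 of the 8, the NMDA receptor subunits Grin2b, Grin2c and Grin3b, against 11.4% of all tested probes and 9.53% of those with a single symbol. With 8 probes in the role, nothing particular to it is read from this count. Grin2b, which slows the decay of NMDA currents early in development, gave log2 values of 0.93, -0.022, 1.39, 1.75 and 0.86 on arrays 1 to 5. It was near 0 on array 2 and positive on the other 4, with a mean of 0.98 ± 0.67 (SD, n = 5), an unadjusted limma p of 0.0205 and an adjusted p of 0.432. Grin2c had 0.47, 1.76, 1.93, 2.23 and -0.50 on arrays 1 to 5. Arrays 2, 3 and 4 were high and array 5 negative, for a mean of 1.18 ± 1.15 (SD, n = 5) and an adjusted p of 0.432. Its other probe had 6.14 and -1.92 on arrays 3 and 5, in opposite directions. Grin2b kept an unadjusted p under 0.05 in 8 of 16 alternatives and Grin2c in 7 of 16, and both kept a positive mean in all 16. Without eBayes moderation in limma the unadjusted p was 0.0302 for Grin2b and 0.0844 for Grin2c.

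Grin3b, a glycine-binding subunit of atypical NMDA receptors, lay on the other side. It gave log2 values of -0.56, -0.61, -4.24 and -1.58 on arrays 1, 2, 3 and 5. All 4 were negative, array 3 far more than the rest, for a mean of -1.75 ± 1.73 (SD, n = 4), an unadjusted limma p of 0.0484 and an adjusted p of 0.435. It kept an unadjusted p under 0.05 in 4 of 13 alternatives, and without eBayes moderation in limma it was 0.136. Grin2d had a mean of -0.11 ± 1.00 (SD, n = 4). The means of the NMDA receptor subunits thus had no common sign.

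The AMPA receptor subunit Gria2, which keeps calcium out of the pore, was tested by 3 probes. Spot 17198, on all 5 arrays, gave log2 values of 0.55, -0.26, -0.092, 0.53 and 0.049 on arrays 1 to 5. All lay within 0.55 of 0. Spot 6348 had 0.29, 0.99, -0.78 and -1.65 on arrays 1, 3, 4 and 5, and spot 12114 had -4.60, -0.67, -0.80 and 0.96 on arrays 1, 2, 3 and 5, where array 1 was far negative and array 5 positive. Their means were 0.16, -0.29 and -1.28. Gria4, another AMPA subunit, had -0.79, 1.49, -1.89, 0.45 and 2.15 on arrays 1 to 5. It was negative on arrays 1 and 3 and positive on arrays 2, 4 and 5. The parts of the marker lists that stood apart on arrays 1 and 3 were not tested. The kainate receptor subunit Grik2 was measured on 3 arrays, with -0.42, 2.34 and 0.39 on arrays 2, 3 and 4.

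Grm2, a metabotropic glutamate receptor that dampens release, gave log2 values of 0.96, 1.47, 2.13, -0.59 and -1.63 on arrays 1 to 5. Arrays 1, 2 and 3 were positive and arrays 4 and 5 negative, a split that follows the scan focus position in the labels, 10 for the first 3 and 0 for the other 2. The mean of 0.47 ± 1.54 (SD, n = 5) was 1.52 within the first set and -1.11 within the second, and the part of the scan was not tested. Its other probe, on 3 arrays, had 2.90, 0.59 and 1.37 on arrays 1, 3 and 5, positive on array 5 too.

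Gabrd, the delta subunit of GABA receptors outside synapses, was the GABA receptor gene listed. Its tested probe gave log2 values of -1.90, -3.30, -0.14 and -1.96 on arrays 1, 2, 3 and 4. All 4 were negative and array 3 was near 0, for a mean of -1.82 ± 1.30 (SD, n = 4), an unadjusted limma p of 0.0181 and an adjusted p of 0.432. The other Gabrd probe, on 3 arrays, had -1.15, -0.93 and -3.26 on arrays 2, 3 and 5. Both probes were thus negative wherever they were measured. The tested one kept an unadjusted p under 0.05 in 9 of 13 alternatives, with means from -2.38 to -1.33 and adjusted p from 0.214 to 0.627. Without eBayes moderation in limma its unadjusted p was 0.0672. Amacrine cell markers (5 tested probes), the retinal neurons that release GABA, had a median minus all probes of -0.55, -0.097, 0.28, 0.37 and 0.45 on arrays 1 to 5, and their part in the Gabrd ratio was not tested.

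The nicotinic acetylcholine receptor subunits Chrna3 and Chrnb4 had means close to 0. Chrnb4 gave log2 values of 0.17, -0.14, 0.18, 0.55 and 0.73 on arrays 1 to 5. It was negative on array 2 alone, with a mean of 0.30 ± 0.34 (SD, n = 5), and this mean was -0.16 without centring. Chrna3 had -1.14, 0.40, -0.13, 0.15 and -0.30 on arrays 1 to 5, lowest on array 1. Its mean of -0.20 ± 0.59 (SD, n = 5) turned to 0.031 without that array. Chrnb3, on 3 arrays, was negative on each, with -1.37, -1.25 and -3.30 on arrays 1, 2 and 4.

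**Figure D4:**
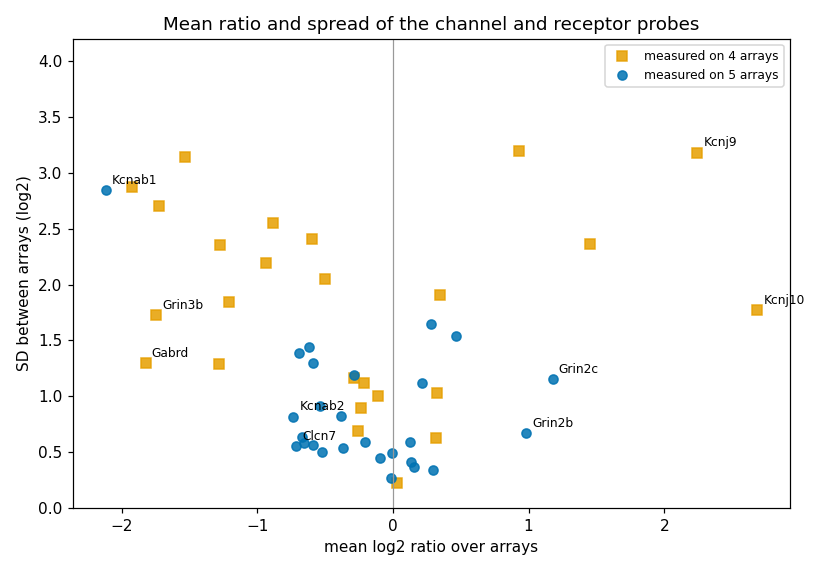
Mean log2 ratio (horizontal) and SD between arrays (vertical) of the 52 tested member probes, with squares for the 25 probes on 4 arrays and circles for the 27 on 5. Probes with an unadjusted p under 0.05 and Kcnj9, Kcnab1 and Kcnab2 are named. Probes on 4 arrays have a median SD of 1.85, against 0.63 on 5.

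The spread between arrays set how far these values can be read, and it was smaller for probes on all 5 arrays than for those on 4 or 3. Member probes on all 5 arrays had a median SD of 0.63 log2, against 0.67 for all such probes. Those on 4 arrays, just inside the limit for testing, had 1.85 (n = 25), against 1.41 for all such probes, and the 19 member spots on 3 arrays, just outside it, had 1.42. The absolute mean had a median of 0.47 on 5 arrays, 0.93 on 4 and 0.79 on 3. Of the 13 means beyond 1 log2 unit, all but those of Kcnab1 and Grin2c belonged to probes on 4 arrays.

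The other 37 member spots were measured on 1 to 3 arrays and were not tested. They left 26 genes with no tested probe. These included all listed serotonin receptors (Htr3a and Htr7), the glycine receptor subunit Glra3, Trpm3 and the retinal channels Cnga1, Kcnv2, Kcnj14 and Cacnb2. The serotonin-gated channel Htr3a had -3.33 and 1.26 on arrays 2 and 3, with opposite signs. Htr7, a G protein-coupled serotonin receptor, had -3.50, 0.037 and -3.53 on arrays 2, 3 and 4, far negative on arrays 2 and 4, after 1 filler value had been set to missing. Kcnv2, a modifier subunit that shapes the photoreceptor light response, had 2.21 and -2.72 on arrays 3 and 5, with opposite signs. Cacnb2, the beta subunit of the photoreceptor calcium channel, had -2.74, -0.33 and 0.72 on arrays 3, 4 and 5, also with 1 filler value left out. Kcnj14, an inward rectifier, had 0.083, -1.23 and 2.08 on arrays 3, 4 and 5. Glra3 had -1.23, 0.53 and -1.06 on arrays 2, 3 and 4. Trpm3, a heat-activated cation channel, had -0.81 and -0.94 on arrays 2 and 3, and Kcnh8, a voltage-gated potassium channel, had -0.75, -1.04 and -2.33 on arrays 2, 3 and 4, both negative on each array measured. The prefix also took in Kcnq1ot1, which is a long non-coding RNA and no channel, with -3.10, -2.18 and 0.58 on arrays 1, 3 and 4. The remaining untested genes were Cacna1e, Cacna1i, Cacna1s, Cacna2d2, Grik2, Chrnb3, Kcna1, Kcna5, Kcnc1, Kcnj3, Kcnk3, Kcnk4, Kcns2, Kcnu1, Scn2b and Scn3b, and their single-array ratios ran from -5.70 for Cacna1e on array 5 to 4.80 for Cacna1s on the same array. Of 22 channel and receptor genes listed for their known place in the retina, 8 had a spot and 4 were tested, Cacna1f, Cacna2d4, Kcnj10 and Chrna3. No muscarinic or dopamine receptor had a single-symbol spot in the annotation used here.

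Proteins that hold, modify or signal for these receptors were looked at beside the members. Of 58 genes listed as scaffolds, auxiliary subunits, G proteins and other partners, 29 had tested probes, 35 in all, and 9 had a positive and 26 a negative mean, where 39.6% of all tested probes and 34.2% of those with a single symbol had a positive one. In limma 0 had an adjusted p under 0.05, and 4 of the 35 had an unadjusted p under 0.05, where 11.4% of all tested probes did. The 4 were negative, as were 5.9% of all tested probes at that p. Nothing particular to the list is read from this count. The median of their means was -0.36, against -0.16 for all tested probes. Ank3, an ankyrin that anchors sodium channels, gave log2 values of -0.92, -0.45, -1.74, -0.59 and -0.66 on arrays 1 to 5. Cnih2, an auxiliary subunit of AMPA receptors, had -1.78, -0.37, -2.00, -0.32 and -0.84 on arrays 1 to 5. Gnao1, the G protein alpha subunit downstream of the glutamate receptor of ON bipolar cells, had -1.36, -0.13, -1.89, -0.56 and -0.80 on arrays 1 to 5. All of these were negative on all 5 arrays and lowest on arrays 1 and 3. The parts of the marker lists that stood apart there and of the wider spread on those arrays were not tested. Adcy1, a calcium-stimulated adenylyl cyclase, had -1.02, -0.38, -1.50 and -0.70 on arrays 2, 3, 4 and 5, also negative on each. Their means were -0.87, -1.06, -0.95 and -0.90, each with an adjusted p of 0.432 in limma.

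Ion channels and associated proteins outside the naming rule, such as intracellular calcium release channels and mitochondrial porins, were counted in the same way. Of 63 genes listed, 14 had tested probes, 17 in all, 6 with a positive and 11 with a negative mean, and 0 had an unadjusted or adjusted p under 0.05 in limma, where 11.4% of all tested probes had the former and 39.6% a positive mean. Those with the smallest p were Stim2, a calcium sensor of the endoplasmic reticulum, with a mean of -0.90 ± 1.32 (SD, n = 5), Tmem63b, a mechanically gated channel, with -0.54 ± 0.66 (SD, n = 5), and the mitochondrial porins Vdac3 and Vdac2 with -0.37 ± 0.26 (SD, n = 5) and -0.44 ± 0.52 (SD, n = 5). Stim2 rested on array 5, at -3.11, and its other tested probe had a mean of -0.096 ± 1.94 (SD, n = 4). Vdac3 was negative on all 5 arrays, with array 4 almost at 0.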

How the data were processed

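Dual-colour arrays, 5 in all, compared mouse retina RNA. GenePix Pro 4.1.1.29 read them, per the labels, subtracting local background without normalizing. The authors deposited log2 ratios, a scale read from the values. Neither the filter behind empty cells nor the dye of each RNA is given in the sources used here. Cells at 16.61, taken as a filler, were set to missing (106 to 141 an array, 2 among member spots). Each array was centred on its median, the 192 ACTB control spots were left out of tests, and probes on at least 4 arrays were tested against 0 with limma 3.58.1 (R 4.3.3; lmFit, eBayes), with Benjamini-Hochberg adjustment over all 10036 and a threshold of 0.05. The number of arrays limits the precision. Gene names came from the platform annotation, and all 89 member spots matched a RefSeq entry of GRCm38.p6.

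Values by array are given for member probes with an unadjusted p under 0.05, with 1 sign on all 5 arrays, at the ends of their role, of genes with several tested probes, or of known retina genes. In the lists of partners and of other channels, values are given for the 4 probes with the smallest p, and for the other tested probe of Stim2. The remaining tested members were added after their values were seen. Members and lists were chosen with earlier results of these data known. The test was tested on simulated data. Alternatives changed the filler, centring, scaling, arrays required, probes per gene, moderation and the arrays included. The unmoderated test of single probes, run for the 7 with a small p or 1 sign, was chosen after seeing the data.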

Additional observations from a re-analysis of the deposited data

Results flagged for a closer look

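Of 53 results checked, the 52 tested member probes and the group median, 6 had 1 array far from the others. A rate of 1 in 20 would give 2.65. The share of all tested probes marked by this rule was not counted, so nothing particular to the members is read from the 6. On array 3, Cacna1b spot 15580 measured -4.68 while its other arrays ran from 0.018 to 0.78. Cacna1f spot 3879 was at -2.50 on array 2, against 1.04 to 1.49. Cacna2d4 was marked on both probes, spot 1615 at -1.87 on array 1, against 0.086 to 0.49, and spot 14179 at 1.87 on array 3, against -1.88 to -1.01. Kcnab2 was at -2.14 on array 3, against -0.64 to -0.063. Kcnk1 was at -4.19 on array 4, against 0.24 to 0.81. Of the 6, 4 are calcium channel probes, a role with 14 of the 52 tested probes. Array 3 gave 3 of the 6, and each of the other 3 arose on a different array.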

How the results depend on the processing

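The count of member probes past the adjusted threshold was 0 in all 17 alternatives. The count at an unadjusted p under 0.05, 6 in the values reported, was 13 without centring, 1 on the 2 arrays at focus position 0, 2 without moderation, and 3 to 9 with single arrays left out. The 3 came without array 1 (4.69%, against 8.73% of all) and the 9 without array 5 (15.3%, against 9.32% of all). The count with 1 sign on every array, 1 of 27 in the values reported, was 3 of 27 without centring and 3 of 27 with centring on probes measured on all 5 arrays. With probes of a gene averaged it was 2 of 26. It was 8 of 36 without arrays 1 and 3, 12 of 35 on the 3 arrays at focus position 10 and 22 of 50 on the 2 at position 0. With single arrays left out it was 1 to 6. Fewer arrays have to match where arrays are left out. The share of all probes was not counted in these settings, so nothing about the members is read from these counts. The group median minus that of all tested probes was -0.25 on the arrays at focus position 10 and stayed within 1 SD of its value otherwise. Without centring the median of all probe means moved from -0.16 to -0.62.

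Of 60 probes named, 32 kept their sign in every alternative and 28 did not, and 0 of 838 values passed the adjusted threshold (smallest 0.214). Means turned sign without centring for Cacna1a 2677 at -0.24, Cacna1f 3879 at -0.040, Cacna2d3 15620 at -0.54, Cacnb4 4497 at -0.25, Clcn3 785 at -0.33, Gria2 17198 at -0.30, Gria4 7818 at -0.18, Chrnb4 37 at -0.16, Scn8a 7386 at -0.079 and Scn9a 2453 at -0.32. With centring on probes measured on all 5 arrays they did for Cacna1h 763 at 0.15, Grin2d 12695 at 0.077, Kcnab3 7455 at 0.14 and Kcne1l 4893 at 0.058, with arrays scaled to the same spread for Cacna1h 763 at 0.049 and Kcnab3 7455 at 0.00098, and with quantile normalization for Cacna1h 763 at 0.049 and Kcnab3 7455 at 0.020. Without arrays 1 and 3 they did for Cacna1f 989 at 0.29, Cacna1h 763 at 0.25, Cacna2d4 1615 at 0.34, Clcn3 7788 at -0.61, Clcn3 10583 at 0.12, Grm2 6671 at -0.25, Chrna3 7850 at 0.083 and Kcnab3 7455 at 0.023. On the arrays at focus position 10 they did for Cacnb4 4497 at -0.40, Clcn3 785 at -0.24, Gria4 7818 at -0.40 and Kcnab3 7455 at 0.057, and on those at 0 for Cacna1f 989 at 0.29, Cacna1h 763 at 0.40, Cacna2d4 1615 at 0.27, Clcn3 7788 at -0.22, Clcn3 10583 at 0.11, Hcn4 15983 at 0.30 and Grm2 6671 at -1.11. The cause of these turns was not tested. With single arrays left out, 20 probes turned sign, with means ranging over Cacna1a 2677 from -0.17 to 0.60, Cacna1b 15580 from -1.44 to 0.38, Cacna1d 15795 from -0.56 to 0.19, Cacna1f 3879 from -0.037 to 1.29, Cacna1h 763 from -0.13 to 0.19, Cacna2d3 15620 from -0.043 to 0.11, Cacna2d4 1615 from -0.45 to 0.34, Cacnb4 4497 from -0.069 to 0.54, Clcn2 3675 from -2.28 to 0.010, Clcn3 785 from -0.083 to 0.27, Clcn3 7788 from -0.61 to 1.71, Clcn4 13542 from -0.51 to 0.041, Gria2 6348 from -0.71 to 0.17, Gria4 7818 from -0.18 to 0.83, Grin2d 12695 from -0.48 to 0.27, Chrna3 7850 from -0.35 to 0.031, Kcnab3 7455 from -0.094 to 0.059, Kcne1l 4893 from -0.20 to 0.045, Kcnip1 16699 from -1.08 to 0.48 and Kcnk1 5869 from -1.07 to 0.60. Each array carried both RNAs, so the test of a mean ratio against 0 was itself a comparison within arrays. All 5 arrays form a single group.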
